A study of Mus musculus with 272 samples.

Results

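The 10 genes described here encode the machinery that removes the cap from messenger RNA (mRNA) and degrades it, and the proteins that hold mRNA in storage granules. They are the decapping enzyme Dcp2, its cofactors Dcp1a, Dcp1b, Edc3 and Edc4, the exonuclease Xrn1, and the storage factors Lsm14a, Lsm14b, Patl2 and Eif4enif1. They were chosen by name, and all 10 were present among the 15854 gene symbols of the deposited table. The study followed mouse oocytes and preimplantation embryos through 8 stages: germinal vesicle (GV) oocyte, metaphase II (MII) oocyte, zygote, 2-cell, 4-cell and 8-cell embryo, morula and blastocyst. Each stage had 4 transcriptome libraries, each from 20 oocytes or embryos, and 3 sucrose gradients of about 100 oocytes or embryos, each split into 10 fractions. All lysates for gradients held cycloheximide, which stalls ribosomes on mRNA, and the labels name no difference between the groups other than stage. The strain, the age of the females and how embryos were obtained are not given in the sources used here, and every library pooled many oocytes or embryos.

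Decapping by Dcp2 exposes the 5′ end of an mRNA to Xrn1, which degrades it towards the 3′ end, usually after the poly(A) tail has been shortened. Growing oocytes are transcriptionally active and then fall silent, so meiotic maturation and the first division run on stored mRNA. That mRNA is kept untranslated in granules that contain LSM14 proteins, PATL2 and 4E-T (the product of Eif4enif1), and is cleared as the embryonic genome takes over. In mouse oocytes, Dcp1a and Dcp2 are known as dormant transcripts that are translated at maturation.

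Levels are in CPM, the reads of a gene per 1 M reads of its library, and changes are differences on the log2(CPM + 1) scale, which understates the changes of low genes. A change is called when the Benjamini-Hochberg adjusted p of limma's test over all genes was under 0.05 and the change was at least 1. Transcriptome libraries held 11.2 to 24.3 M reads and fraction libraries 0.0102 to 43.2 M. Stage markers followed the labels in sum: 5 oocyte genes had 13973 to 15786 CPM in GV oocytes and 4.76 to 11.5 CPM in blastocysts. The sum of 6 blastocyst genes reached 2259 to 2864 CPM in blastocysts. Gata3 among them also averaged 90.8 CPM in MII oocytes and 107 CPM in zygotes, above 14.6 CPM in morulae. Of 8 cumulus and granulosa genes, 4 were in the table. Fshr and Inha averaged at most 2.45 CPM. Cyp19a1 averaged 38, 62.7 and 53.8 CPM in GV oocytes, MII oocytes and zygotes, and Nr5a2 was highest in 4-cell embryos (251 CPM). The labels do not say whether replicates came from separate collections, so p-values measure the spread between these samples, which may be technical. In pooled embryos, a change in the share of cells with a transcript and a change in RNA per cell cannot be told apart. The labels name poly(A) RNA as the material, so a change in transcript number and a change in the capture of its tail cannot be told apart either. Each library is scaled to its own total, so a rise or fall here is one in share of the library. More molecules of a gene and fewer molecules of other genes cannot be told apart.

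Cytoplasmic polyadenylation elements (CPEs) are U-rich sequences near the 3′ end through which stored oocyte mRNAs are readenylated at maturation. The last 100 bases of the annotated 3′ untranslated region were searched, on the transcript strand only, for TTTTAT and TTTTAAT, and 2 of the 9 genes searched held a match. These were Dcp1a and Lsm14a, which also rose in transcriptome level from GV to MII. Xrn1 rose there too and held no match. The matches are shown because stored mRNAs are known to be regulated through such elements. Capitals mark the motif, and the sequences are those of the GENCODE M21 annotation, read 5′ to 3′.
Dcp1a, upstream match: tcatcctaaaTTTTATatgtttgcaaatat
Dcp1a, downstream match: aaatatatttTTTTAATaaaatttcaaaac
Lsm14a: cactttgtgtTTTTAATaaaggccatggaa
The motif began 67 and 43 bases before the end of the Dcp1a region and 42 bases before that of Lsm14a. Both TTTTAAT matches overlapped the polyadenylation hexamer AATAAA, while the TTTTAT match of Dcp1a did not. Of 19432 untranslated regions of at least 100 bases, 17.9% held either motif in the same window, so 2 of 9 is near this background, and 78.7% held AATAAA or ATTAAA. A match is a description of these letters and not a shown site, and Dcp2 was not searched.

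**Figure D1:**
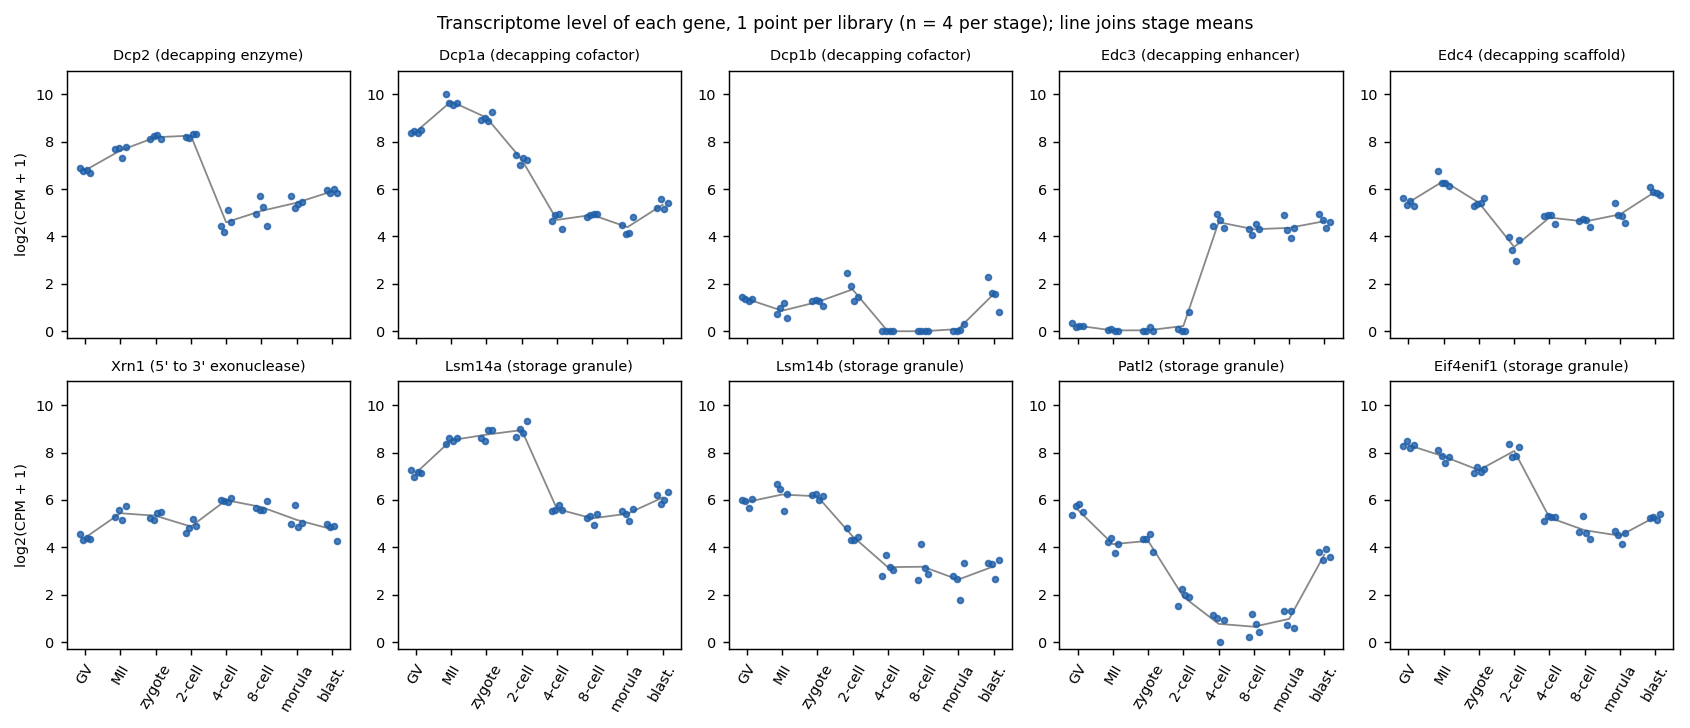
Transcriptome level of the 10 genes on the log2(CPM + 1) scale (y axis) at the 8 stages (x axis), with 1 point per library (4 per stage) and a line through the stage means. Dcp2, Dcp1a, Lsm14a and Eif4enif1 drop between the 2-cell and 4-cell stage, where Edc3 rises from a mean of 0.2 CPM to 23.6 CPM.

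All 10 genes changed between the 2-cell and the 4-cell embryo, 7 lower and 3 higher, at a transition where 64.8% of all 14642 genes tested were called, 32.9% lower and 31.8% higher. At the GV to MII step 3 genes rose (Dcp1a, Lsm14a and Xrn1) and 1 fell (Patl2), where 34.5% of all genes were called, 9.11% higher and 25.3% lower. From zygote to 2-cell, 4 fell (Dcp1a, Edc4, Lsm14b and Patl2) and none rose, where 33.9% of all genes were called and 8.71% were lower. From morula to blastocyst, 2 rose (Dcp1b and Patl2), where 26.8% were called and 18.8% were higher. No gene was called from MII to zygote, from 4-cell to 8-cell or from 8-cell to morula by limma or by edgeR, where 10.3%, 2.6% and 11.9% of all genes were called, and 4, 3 and 2 of the 10 had an unadjusted limma p under 0.05. All 10 entered the tests, Edc3 only through its levels from the 4-cell stage on. The median change of the 10 was 0.58 from GV to MII, -0.19 from zygote to 2-cell and -1.53 from 2-cell to 4-cell, beside medians over all genes of -0.11, 0.37 and 0.02. At the last of these the summed oocyte markers went from 4488 to 5550 CPM to 46.1 to 68.8 CPM, and their part in the changes of the 10 genes was not tested. Consecutive comparisons share the libraries of the middle stage. The 2-cell transcriptome columns carry replicate letters that the labels and the other stages do not have. Whether these libraries were made apart from the others is not given. At the steps into and out of the 2-cell stage, stage and set of libraries therefore cannot be told apart.

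Dcp2, the catalytic subunit that cleaves the cap, had a higher mean at each stage up to the 2-cell embryo and then fell. Its 4 GV libraries had 119, 109, 110.1 and 102 CPM, and its 4 MII libraries 208, 209, 158 and 219 CPM. The groups did not overlap, but the change of 0.84 (SE 0.18, limma adjusted p 0.00017) stayed under 1. With edgeR on whole reads the same change was called. Zygotes averaged 291 ± 18.8 CPM and 2-cell embryos 305 ± 16.7 CPM (SD, n = 4), and their ranges overlapped. The 2-cell libraries had 295, 287, 323 and 316 CPM, and the 4-cell libraries 21, 17.5, 34 and 23.1 CPM. Every 4-cell library was far below every 2-cell library, a fall (change -3.66, SE 0.18, limma adjusted p 1.7e-19). The mean then ran from 34.7 CPM in 8-cell embryos to 58.9 CPM in blastocysts.

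Dcp1a, the activator that binds Dcp2, peaked earlier, in the MII oocyte. Its GV libraries had 332, 349.9, 333 and 355 CPM, and its MII libraries 1028, 794, 746 and 784 CPM. All MII libraries lay above all GV libraries, a rise of 1.28 (SE 0.15, limma adjusted p 5.6e-09). Zygotes had 485, 507, 472 and 618 CPM, below the MII range, with a change from MII of -0.68. The 2-cell libraries had 170.3, 129, 156 and 151 CPM, a fall (change -1.77 from the zygote, SE 0.15, limma adjusted p 2.8e-12). At the 4-cell stage 18.8 to 30.1 CPM remained, a further fall (change -2.55, SE 0.15, limma adjusted p 3.2e-17). Dcp1a was thus already lower at the 2-cell stage, where the ranges of Dcp2 in zygotes and 2-cell embryos still overlapped; whether the changes of these genes differ was not tested.

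Dcp1b, the paralogue of Dcp1a, was near the limit of detection throughout. Its mean was 1.58 ± 0.111 CPM in GV oocytes and 2.58 ± 1.36 CPM in 2-cell embryos (SD, n = 4), the latter from libraries with 4.43, 2.76, 1.44 and 1.69 CPM. It had 0 reads in all 4-cell and all 8-cell transcriptome libraries. Against a floor of 3 reads per library, which covers counting error only, the 4-cell level was at least 15.3-fold lower than the 2-cell level. It returned in blastocysts with 3.86, 2.07, 1.96 and 0.732 CPM, above the morula range of 0 to 0.227 CPM (change 1.47, SE 0.22, limma adjusted p 9.0e-07). Per kilobase of exon, Dcp1b ranked 9th or 10th of the 10 genes at the GV, MII, zygote, 2-cell and blastocyst stages.

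Edc3 and Edc4 encode proteins that enhance decapping, Edc4 as the scaffold that brings Dcp1 and Dcp2 together. Edc4 was present at all 8 stages, while Edc3 was nearly undetected up to the 2-cell stage. Edc3 had 0 to 0.736 CPM in every library up to the 2-cell stage, at most 10 reads, and 19.5 to 29.6 CPM at the 4-cell stage. Its 2-cell libraries had 0.0642, 0, 0 and 0.736 CPM and its 4-cell libraries 20.8, 29.6, 24.5 and 19.5 CPM, a rise of 4.38 (SE 0.20, limma adjusted p 2.2e-20). Its means in 4-cell, 8-cell, morula and blastocyst libraries lay between 18.9 and 24.3 CPM, with overlapping ranges. Exons of Clk3 on the opposite strand share 22.1% of the exon bases of Edc3, and the strand setting of the authors' counting is not given. Clk3 averaged 63.3 CPM in GV and 92.4 CPM in MII oocytes, where Edc3 averaged 0.177 and 0.0249 CPM.

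Edc4 was highest in MII oocytes and lowest in 2-cell embryos. It had 48.1, 39.4, 43.9 and 38.2 CPM in GV libraries and 108, 75.5, 74.5 and 68.5 CPM in MII libraries, groups that did not overlap (change 0.91, SE 0.19, limma adjusted p 7.5e-05, under the size limit of 1). The change passed that limit after quantile normalization and with edgeR. Zygotes had 38.2, 39.8, 41.6 and 48.6 CPM and 2-cell embryos 14.6, 9.81, 6.85 and 13.4 CPM, a fall (change -1.87, SE 0.19, limma adjusted p 1.1e-10). The 4-cell libraries, with 28.1, 29.3, 28.7 and 22 CPM, were all above the 2-cell range (change 1.25, SE 0.19, limma adjusted p 2.2e-07). In blastocysts Edc4 averaged 58.4 CPM, with libraries of 53.3 to 67.3 CPM against 22.6 to 41.4 CPM in morulae (change 0.96, SE 0.19, limma adjusted p 5.7e-05).

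Xrn1, the exonuclease that degrades decapped mRNA from its 5′ end, moved the other way from Dcp2 at the 2-cell to 4-cell step. It rose from 22.5, 19.1, 20.3 and 19.2 CPM in GV to 37.4, 47.3, 34.7 and 52.7 CPM in MII libraries, with no overlap (change 1.03, SE 0.18, limma adjusted p 8.1e-06). Without MII replicate B it was 0.98 and without replicate D 0.93, both under the size limit. The 2-cell libraries had 23.6, 27.2, 35.3 and 28.6 CPM and the 4-cell libraries 62.3, 61.7, 58.9 and 67.7 CPM, a rise of 1.11 (SE 0.18, limma adjusted p 1.1e-06) that was not called with edgeR. The 4-cell mean was the highest of the 8 stages, and its range overlapped that of the 8-cell stage, which averaged 51.4 CPM. Blastocysts averaged 26.7 CPM. Antisense genes share at most 3.25% of the exon bases of Xrn1.

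Lsm14a, an LSM14 protein that represses translation in granules, was highest in mean in 2-cell embryos. Its libraries had 155, 124, 143 and 141 CPM in GV and 329.7, 396, 353 and 390.2 CPM in MII oocytes. The MII libraries were all above the GV libraries, a rise of 1.38 (SE 0.15, limma adjusted p 3.8e-10). The level stayed high in zygotes, at 436 ± 69.8 CPM (SD, n = 4), and in 2-cell embryos, whose libraries had 404, 509, 453 and 636 CPM. At the 4-cell stage it was 44.9, 47.4, 53.5 and 47.3 CPM, a fall (change -3.33, SE 0.15, limma adjusted p 4.1e-21).

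Lsm14b, its oocyte-enriched paralogue, was lower at the 2-cell stage than in the zygote, a step at which Lsm14a was not called (change 0.19). It had 73.1, 74.8, 62.9 and 70.9 CPM in zygotes and 27.1, 19, 18.6 and 20.7 CPM in 2-cell embryos, without overlap (change -1.69, SE 0.28, limma adjusted p 3.1e-06). In 4-cell embryos 5.98 to 11.7 CPM were left (change -1.30, SE 0.28, limma adjusted p 7.2e-05), and the ranges of the last 4 stages overlapped. Whether the paralogues differ in their change was not tested.

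Patl2, the oocyte relative of the decapping activator PAT1, was highest in GV oocytes. It had 39.7, 52, 55.3 and 43.7 CPM there and 17.8, 20.1, 12.7 and 16.5 CPM in MII oocytes, a fall (change -1.46, SE 0.25, limma adjusted p 5.2e-06) that was under the size limit after quantile normalization. It fell again from 19.7, 19.6, 22.4 and 12.9 CPM in zygotes to 1.86, 3.75, 2.96 and 2.72 CPM in 2-cell embryos (change -2.36, SE 0.25, limma adjusted p 3.9e-10). The further fall to 0 to 1.19 CPM at the 4-cell stage (change -1.14) was not called after quantile normalization or without 4-cell replicate C, which had 0 reads (change -0.88). In blastocysts it had 12.9, 9.91, 14.4 and 10.9 CPM, all above the morula range of 0.499 to 1.49 CPM (change 2.71, SE 0.25, limma adjusted p 4.0e-11).

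Eif4enif1 encodes 4E-T, which binds the cap-binding protein eIF4E and keeps it from starting translation. Its GV libraries had 308, 359, 291 and 318 CPM, and the mean went to 230.1 CPM in MII oocytes and 152 CPM in zygotes, steps whose changes of -0.48 and -0.58 stayed under the size limit. The 2-cell libraries were higher than the zygotes again, with 331, 226, 227 and 301 CPM against 139.7, 166, 145 and 158 CPM (change 0.81, SE 0.16, limma adjusted p 6.3e-05). In 4-cell embryos 33.4, 39.5, 37.9 and 38.2 CPM remained, a fall (change -2.81, SE 0.16, limma adjusted p 1.3e-17). Morulae averaged 21.7 CPM and blastocysts 38 CPM.

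Levels of different genes can be set beside each other only per length. On CPM per kilobase of exon, Eif4enif1 was the highest of the 10 in GV oocytes with 50.1 ± 4.52 (SD, n = 4), ahead of Dcp1a with 41.6 ± 1.42. Dcp1a led in MII oocytes with 102 ± 15.6, and Lsm14a led in zygotes with 71.1 ± 11.4, in 2-cell embryos with 81.6 ± 16.4 and in blastocysts with 11.1 ± 1.68. In zygotes Dcp1a followed with 63.3 ± 8.09 and in blastocysts Edc4 with 10.6 ± 1.12, both within the spread of Lsm14a. At the other 3 stages the libraries of the leading gene lay above those of the next. The same gene led at each of these stages when the length of 1 coding transcript per gene was used.

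The genes most like each member over the 32 transcriptome libraries were taken by Pearson's r of log2(CPM + 1) across all genes tested. These r values describe libraries that share 8 stages and their scaling, and carry no test. The highest were 0.99 for Edc3 with R3hcc1 and Mrm2, 0.99 for Dcp1a with Nceh1 and Trpc4, and 0.99 and 0.98 for Lsm14a with Ppp1r12a and Gtf2a1. Eif4enif1 was most like Ston2 and Angptl2 (0.98 each), Dcp2 like Rab14 and Strn (0.97 each), Lsm14b like Itpr2 and 2700049A03Rik (0.97 and 0.96), and Patl2 like H2bc4 and B3galnt1 (0.96 each). Edc4 reached 0.92 with Ppp2r1a, Dcp1b 0.90 with Prune1 and Fbxl21, and Xrn1 0.87 and 0.86 with Ints13 and Cecr2, the lowest of the 10.

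The other genes of the pathway give the setting. The shares of all genes called, given above, are the background of each count, with 25.2% called higher from zygote to 2-cell. The decapping list held Lsm1 to Lsm7, Patl1, Ddx6, Pnrc1, Pnrc2, Dcps, Nudt16, Nudt3 and Xrn2, which are not all cofactors. Of these 15 genes, 6 rose and 4 fell from 2-cell to 4-cell, with a median change of 0.56 beside 0.02 over all genes. Lsm4, a subunit of the Lsm1-7 ring that binds shortened tails, went from 7.54 ± 3.43 to 183 ± 37.7 CPM (SD, n = 4; change 4.49), while Pnrc1, a nuclear decapping coactivator, went from 333 ± 9.8 to 3.19 ± 0.951 CPM (change -6.35). From GV to MII 3 rose and 5 fell, among them Patl1, the paralogue of Patl2, from 10.3 to 26.8 CPM (change 1.31), and Lsm3, from 256 to 32 CPM (change -2.96). From zygote to 2-cell 4 rose and 2 fell, a share of higher genes near the 25.2% background, with Pnrc2 highest (change 2.04) and Lsm5 lowest (change -1.93).

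Of 12 tested genes of the exosome, which degrades mRNA from the 3′ end, 9 rose and none fell from 2-cell to 4-cell, where 31.8% of all genes were higher and 32.9% lower. The median change was 2.22, beside 0.02 over all genes. Exosc5, a ring subunit, changed by -4.44 from GV to MII (31.6 to 0.53 CPM) and by 4.07 from 2-cell to 4-cell (3.79 to 75.7 CPM). From zygote to 2-cell 2 rose and 4 fell; Dis3, the catalytic subunit, changed by 1.98 and Exosc7 by -2.20. Of 17 deadenylation genes, 6 rose and 1 fell from GV to MII, with Pan2 (change 1.48) and Cnot10 (change -1.88) at the ends. From zygote to 2-cell 3 rose and 1 fell (Tob1 3.51, Cnot3 -1.88), and from 2-cell to 4-cell 4 rose and 9 fell. The last group held Btg4, the adaptor that brings the deadenylase to maternal mRNA, from 11374 to 17.9 CPM (change -9.30), and the scaffold Cnot1 was the highest riser, from 98.9 to 472 CPM.

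Of 10 storage partners, 2 rose and 5 fell from GV to MII, 4 rose and 3 fell from zygote to 2-cell, and 1 rose and 7 fell from 2-cell to 4-cell. Patl1 and Ddx6 are counted in this list and in the decapping list. Zar1l, an oocyte RNA-binding protein, went from 838 to 29.7 CPM at maturation (change -4.82), and its relative Zar1 from 499.8 to 42.1 CPM after the zygote (change -3.54). Ybx2, the germ-cell Y-box protein of mRNA particles, changed by 2.05 at the same step. Eif4e1b, the oocyte form of the cap-binding protein, fell from 217 ± 107 to 0.952 ± 0.596 CPM at the 2-cell to 4-cell step (change -6.75), where Eif4e2 rose from 35.2 to 345 CPM (change 3.26). All changes named for these lists were called by limma with adjusted p of at most 1.9e-07, and none lost its call under 37 or 38 alternative settings.

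In a sucrose gradient an mRNA with more ribosomes sediments further. Here the heavy side means fractions 6 to 10 and the light side fractions 1 to 5, a convention, since the labels only number them. The 5 CPM values of a side were averaged within a gradient, and the difference heavy minus light on the log2(CPM + 1) scale was tested in 1 fit over all stages. Each fraction is scaled to its own total, so these values do not count molecules per fraction.

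**Figure D2:**
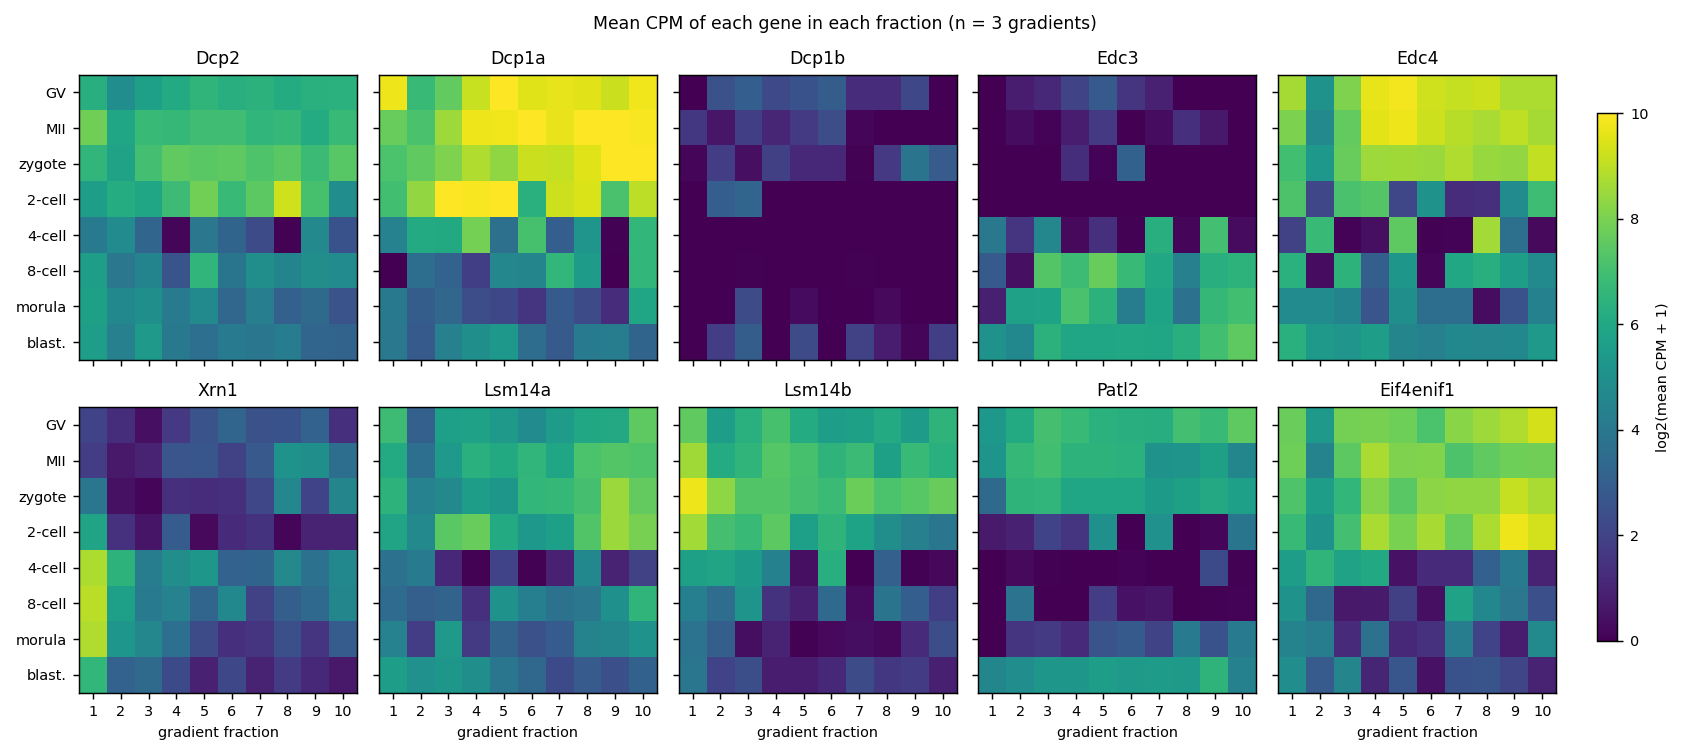
Mean CPM of each gene over 3 gradients, as log2(mean CPM + 1) by colour (values above 10 have the colour of 10), in fractions 1 to 10 (x axis) at the 8 stages (rows). In zygotes Dcp1a and Lsm14a are brightest in fraction 9 or 10, and Xrn1 is brightest in fraction 1 from the 4-cell stage to the blastocyst.

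In MII oocytes or zygotes, Dcp1a, Lsm14a, Eif4enif1 and Xrn1 were called on the heavy side in fits of single stages, not in the fit over all stages. The fit over all stages called 0 of the 10 genes in GV, MII or zygote gradients with limma, and edgeR called 0 as well; 0, 1 and 1 genes had an unadjusted limma p under 0.05, and 0.0725%, 3.23% and 3.01% of all 15172 genes were called. All stages share 1 estimate of the spread in that fit, which gave Dcp1a an SE of 0.93 where a fit of the MII stage alone gave 0.25. When only the 6 sides of a stage entered the fit, 3 of the 9 that passed the filter were heavier in MII oocytes (Dcp1a, Lsm14a and Xrn1), against 12.7% of all genes, and 3 of 9 in zygotes (Dcp1a, Lsm14a and Eif4enif1), against 13.2%. Edc3, nearly undetected there, did not pass.

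Dcp1a in MII gradients A, B and C had 967, 1135 and 1046 CPM on the heavy side and 559, 561 and 342 CPM on the light side. The heavy side was higher in 3 of 3 gradients without overlap (difference 1.14, SE 0.25, limma adjusted p 0.0072 in the fit of that stage, 0.78 in the fit over all stages). In zygotes the sides were 982, 703 and 1145 against 269.6, 299 and 252 CPM (difference 1.76, SE 0.23, limma adjusted p 0.00071, 0.44 over all stages). In GV oocytes they were 754, 829 and 663 against 533, 624 and 586 CPM (difference 0.36), which also did not overlap but was not called in either fit. Fraction 1, part of the light side, had 1242, 801 and 559 CPM in GV gradients A, B and C. The fraction 1 libraries of A and B held 0.0102 and 0.0231 M reads, and their part in the small GV difference was not tested. The shift of the difference was called for 0 of the 10 genes by limma and edgeR from GV to MII and from MII to zygote, where 0.185% and 0.0198% of all genes shifted and 0 and 1 of the 10 had an unadjusted limma p under 0.05.

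Lsm14a followed the same course. In MII gradients its heavy side had 143, 105 and 115 CPM and its light side 86.4, 35.6 and 37.4 CPM (difference 1.29, SE 0.36, limma adjusted p 0.026 in the fit of that stage, 0.65 over all stages). In zygotes it had 105, 151 and 272 against 63.2, 30.1 and 37.6 CPM (difference 1.94, SE 0.39, limma adjusted p 0.0062, 0.29 over all stages). The sides did not overlap at either stage, while in GV gradients, with 85.2, 79.7 and 65.1 against 25.5, 48.7 and 84.1 CPM, they did. This overlap came from fraction 1 of GV gradient C, part of the light side, with 306.9 CPM in 7.66 M reads. The other light fractions of that gradient had 0.135 to 43.7 CPM, below its heavy side. Fraction 1 of GV gradients A and B had 0 and 42.2 CPM, in only 0.0102 and 0.0231 M reads. The overlap therefore does not show that GV oocytes differ from the later stages.

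Eif4enif1 in zygotes had 429, 224 and 509 CPM on the heavy and 158, 142 and 152 CPM on the light side (difference 1.28, SE 0.30, limma adjusted p 0.013 in the fit of that stage, 0.45 over all stages). In MII oocytes its sides overlapped, with 219.8, 169 and 248 against 282, 211 and 176 CPM. Dcp2 had overlapping sides in GV oocytes and MII oocytes and a difference of 0.29 in zygotes, with 171, 169 and 132 against 116, 137 and 129 CPM. Its higher transcriptome level in MII oocytes came with no call of a heavier position, and its difference there was -0.43.

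Lsm14b leaned to the light side at all 8 stages in mean, without a call in the fit over all stages or in that of any single stage. Single gradients went the other way at 4 stages. The heavy side was higher in 1 of 3 gradients in GV oocytes, 4-cell embryos and morulae, and in 2 of 3 in 8-cell embryos. In zygotes its heavy side had 142, 155 and 207 CPM and its light side 351, 292 and 322 CPM. The sides did not overlap and the light side was higher in 3 of 3 gradients (difference -0.95, limma adjusted p 0.014 in the fit of that stage, 0.82 over all stages), and the size limit of 1 was not reached. Its paralogue Lsm14a had a difference of 1.94 in the same gradients, a contrast between genes that was not tested. Patl2 in MII oocytes had 32.3, 47.9 and 54.7 CPM on the heavy and 76.7, 97.9 and 85 CPM on the light side (difference -0.95, limma adjusted p 0.046 in the fit of that stage, 0.79 over all stages), also without overlap and under the size limit.

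**Figure D3:**
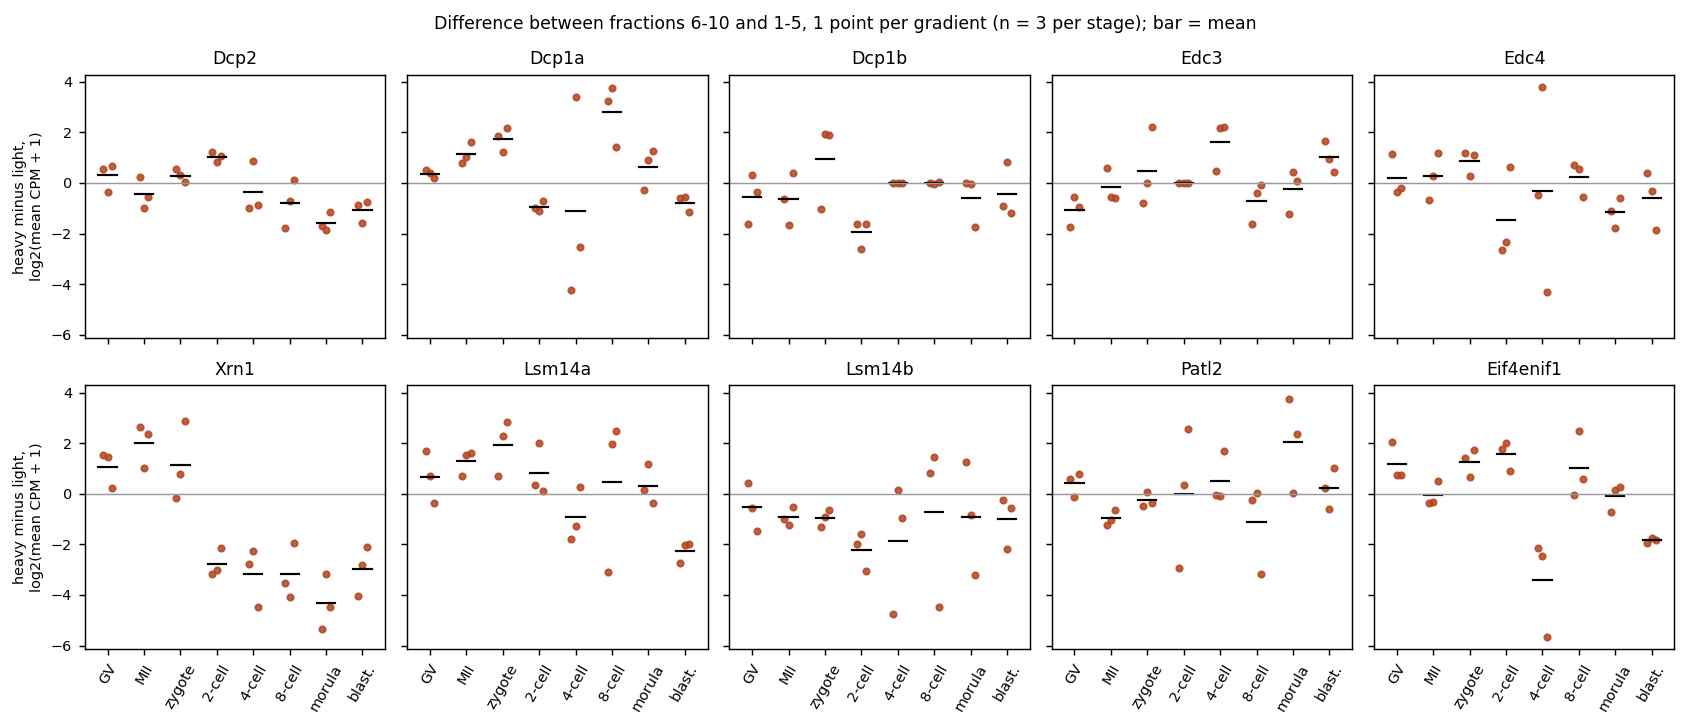
Difference heavy minus light on the log2(mean CPM + 1) scale (y axis) for each gene at the 8 stages (x axis), with 1 point per gradient (3 per stage) and a bar at the mean. Dcp1a is above 0 in all gradients of GV oocytes, MII oocytes and zygotes, and Xrn1 is below 0 in every gradient from the 2-cell stage on.

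From the 2-cell stage on, Xrn1 was called on the light side at every stage in the fit over all stages. The fit over all stages called Xrn1 and Dcp1b lighter in 2-cell gradients (18.2% of all genes called), Xrn1 and Eif4enif1 lighter in 4-cell gradients (16.3%), Xrn1 lighter and Dcp1a heavier in 8-cell gradients (9.05%), and Xrn1 lighter in morulae (5.81%) and blastocysts (2.74%). These shares count both directions, and 2 of 10 genes at the 2-cell and at the 4-cell stage is near them. In the fits of single stages 0 of 9 genes were called at the 2-cell and 0 of 8 at the 4-cell stage, where 1.9% and 0% of all genes were. Of these, 5 and 1 had an unadjusted limma p under 0.05, and edgeR over all stages called 1 and 0. In blastocysts the fit of that stage called 3 genes lighter (Xrn1, Lsm14a and Eif4enif1), against 11.8% of all genes.

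Xrn1 had a higher CPM on the heavy side in MII oocytes and its highest CPM in fraction 1 from the 2-cell embryo on. In MII gradients it had 26.7, 7.28 and 16.4 CPM on the heavy and 3.38, 3.08 and 2.37 CPM on the light side (difference 2.02, SE 0.54, limma adjusted p 0.021 in the fit of that stage, 0.10 over all stages). In morulae it had 4.2, 3.69 and 1.96 CPM on the heavy and 209.8, 41.7 and 64.6 CPM on the light side (difference -4.33, SE 0.68, limma adjusted p 1.6e-05). The sides did not overlap at either stage. The differences were -3.18 in 8-cell embryos (limma adjusted p 0.0011) and -2.98 in blastocysts (limma adjusted p 0.0064). Without blastocyst gradient A or B the limma adjusted p was 0.24 or 0.079. The shift from zygote to 2-cell was -3.93 (limma adjusted p 0.011), at a step where 4.65% of all genes shifted. Without zygote gradient C it was -3.07 (limma adjusted p 0.13). Its call was also lost with quantile normalization, with only the groups compared, with fractions 2 to 5 as light and with edgeR.

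The light-side calls of Xrn1 rested on fraction 1. From the 2-cell stage on, fraction 1 held 51.7% to 92% of the CPM summed over the 10 fractions, in libraries with 23 to 800 reads of Xrn1. In morulae fraction 1 had 869, 189.8 and 290.3 CPM, and the highest of the other fractions 80.8, 10.7 and 21 CPM. With fractions 2 to 5 as the light side the differences were -0.42 in 2-cell, -1.76 in 4-cell, -0.89 in 8-cell embryos, -1.68 in morulae and -1.04 in blastocysts, and none was called. With edgeR on reads summed over a side, which weighs fractions by their depth, the differences were -1.61, -0.64, -0.68, -2.42 and -2.12 at these stages, and none was called either. In zygotes the same change of sides gave 2.42 (limma adjusted p 0.046), a call on the heavy side. Fraction 1 libraries of the 2-cell to morula stages were shallow, with 0.141 to 0.782 M reads, and the part of that depth in the result was not tested.

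**Figure D4:**
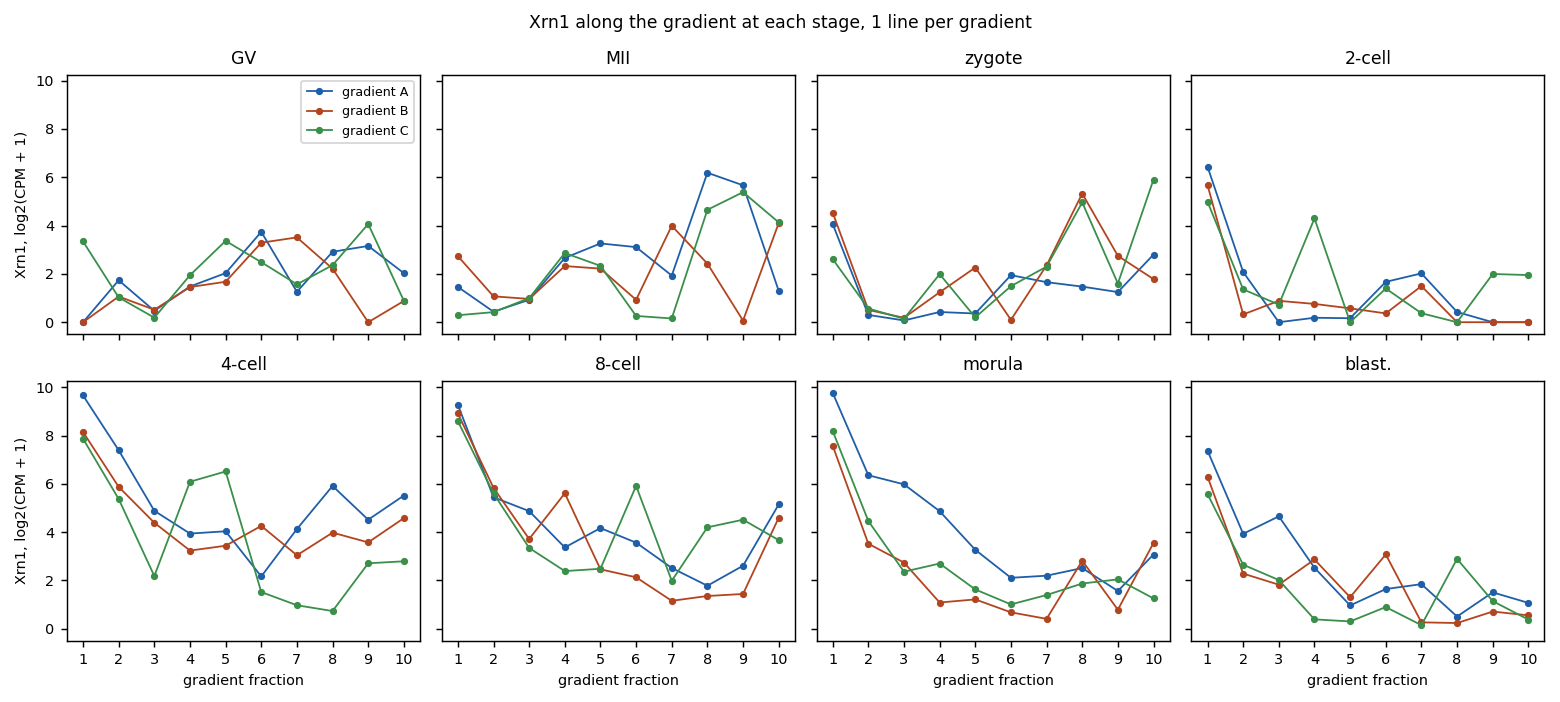
Xrn1 on the log2(CPM + 1) scale (y axis) in fractions 1 to 10 (x axis) at each stage, with 1 line per gradient. In MII oocytes the highest fraction lies on the heavy side in all 3 gradients, and from the 2-cell stage to the blastocyst fraction 1 is the highest in all 15 gradients.

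In blastocysts Lsm14a had 3.78, 6.26 and 8.64 CPM on the heavy and 31, 28.6 and 37.6 CPM on the light side (difference -2.26, SE 0.37, limma adjusted p 0.0011 in the fit of that stage, 0.22 over all stages). The light side was higher in 3 of 3 gradients without overlap, the opposite of its order in MII oocytes and zygotes. Eif4enif1 had 1.57, 2.39 and 4.62 against 8.83, 10.5 and 18.9 CPM there (difference -1.84, SE 0.46, limma adjusted p 0.012, 0.20 over all stages), also without overlap. Dcp2 in morulae had 9.26, 4.79 and 15.7 against 32.6, 19.8 and 36.4 CPM. Its difference of -1.57 was not called over all stages (limma adjusted p 0.14) or in the fit of that stage (0.076), and was called when the gradient was a block in the fit (limma adjusted p 0.033).

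Eif4enif1 had 15.2, 1.1 and 0.465 CPM on the heavy and 70.9, 10.4 and 73.7 CPM on the light side of 4-cell gradients A, B and C. The light side was higher in 3 of 3 gradients but the sides overlapped (difference -3.42, limma adjusted p 0.00042). At this stage the same fit called 8.4% of unchanged genes in simulated data, and the limma adjusted p in the fit of that stage was 0.35. The preceding 2-cell difference was 1.56 and the following 8-cell difference 1.00, so the shifts were -4.98 and 4.43 (limma adjusted p 0.00056 and 0.0082), where 11.7% and 2.47% of all genes shifted. The last 2 steps, up to the blastocyst, had 0 shifts among the 10 genes by limma and edgeR, 1 unadjusted limma p under 0.05 each, and 0.534% and 0.0198% of all genes shifted. Neither shift of Eif4enif1 was called when only the groups compared entered the fit, and the later one had a limma adjusted p of 0.062 without 8-cell gradient B. Dcp1b in 2-cell gradients had 0 reads in 27 of 30 fraction libraries, and all its reads were on the light side, with 2.11, 5.08 and 2.09 CPM (difference -1.96, limma adjusted p 0.0087). Its shift from the zygote was -2.90 (limma adjusted p 0.020). Without 2-cell gradient B the limma adjusted p was 0.088 for the difference and 0.064 for the shift, and without zygote gradient B or C that of the shift was 0.12 or 0.15. Dcp1a in 2-cell gradients had 491, 212 and 513 CPM on the heavy and 987, 457 and 849 CPM on the light side. The light side was higher in 3 of 3 gradients, but the sides overlapped (difference -0.95, limma adjusted p 0.56). Its shift from the zygote was -2.70 (limma adjusted p 0.29). That shift was called when only the groups compared entered the fit (limma adjusted p 0.042). Dcp1a in 8-cell gradients had 93.8, 13.8 and 51.5 CPM on the heavy and 8.9, 0.0864 and 18.4 CPM on the light side (difference 2.82, limma adjusted p 0.049), a call that was lost in 25 of 33 alternative settings, with a limma adjusted p of 0.20 without 8-cell gradient A and 0.19 without B.

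Edc3 gave 0 reads in all 30 fraction libraries of 2-cell embryos. It appeared in 4-cell gradients with 0.537, 77.4 and 44.9 CPM on the heavy and 0.104, 16.4 and 8.98 CPM on the light side (difference 1.62, limma adjusted p 0.25). In blastocysts it had 81.5, 141 and 80.4 against 24.9, 72.4 and 59.8 CPM, higher on the heavy side in 3 of 3 gradients without overlap (difference 1.01, limma adjusted p 0.94), and it was not called in the fit of that stage. Before the 2-cell stage neither side of any gradient exceeded 4.62 CPM, although single fractions reached 12.4 CPM (GV gradient A, fraction 5) and 23.1 CPM (zygote gradient C, fraction 6).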

How the data were processed

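Per the labels' protocols, RNA of gradient fractions and of pools was amplified with a Smart-seq kit, made into Nextera libraries and sequenced as paired ends. The submitters' processing notes name Trim Galore 0.6.7, FastQC, HISAT2 2.2.1, featureCounts 2.0.1, edgeR and the build GRCm39, without role or order. The authors deposited 1 table of CPM values for 272 libraries. The deposited values of 9 columns summed above 1.02 M and were recorded as a signal, with the same steps as CPM. Of 159 symbols in 76 groups of identical values, 1 per group was kept, which left 15771. Every library gave whole reads within 0.05 reads, which were used for depth, floors and edgeR. For edgeR, the reads summed over the heavy side of 2-cell gradient B left out fraction 7, which the means used by limma kept. Amplified reads carry no molecular identifiers, so floors cover counting error only. The 4 transcriptome columns of 2-cell embryos carry the letters E to H, which the labels do not, and are named by them.

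The test was limma 3.58.1 (R 4.3.3) with a mean-variance trend on log2(CPM + 1), for genes that reached a CPM of 1 in a number of samples equal to the smallest group size. Tested on simulated data, it called no unchanged gene from GV to MII or between MII sides. The gradient fit over all stages called 8.4% of unchanged genes in 4-cell embryos, so calls there are less reliable. No other gradient stage was simulated, the 2-cell stage included. Named were the 10 genes, for each the 2 most correlated genes (1 of which is not reported here), and of each other list the called gene with the largest rise and fall at 3 transitions. Genes and lists were chosen with earlier results of these data known. Alternatives were a pseudocount of 0.1, no filter, quantile normalization, only the groups compared, a replicate block, other heavy and light fractions, edgeR 4.0.16, and leaving out each library or gradient. Heavy and light sides of 1 gradient come from the same lysate and are paired by design; their deviations correlated at 0.0078 to 0.25. The reference genome is of another build than the deposited data, so no coordinates are printed, and sequences and lengths come from GENCODE M21.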

Additional observations from a re-analysis of the deposited data

Results flagged for a closer look

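Within stages of 4 transcriptome libraries, 6 of 78 groups had 1 library far from the other 3. Chance gives about 1 in 20 for continuous values, a rate that does not hold for low counts with ties. Dcp1a in MII replicate A had 1028 CPM, where the others had 746 to 794. Edc3 had 0.263 CPM in GV replicate A (others 0.145 to 0.151), 0.117 in zygote replicate C (others 0) and 0.736 in 2-cell library H (others 0 to 0.0642). In reads these were 4 (others 2), 2 (others 0) and 10 (others 0 or 1). Such counts are too low and too often tied for the rule to set a library apart. Edc4 in 4-cell replicate D had 22.0 CPM, below the others at 28.1 to 29.3. Xrn1 in morula replicate B had 53.8 CPM, above the others at 27.8 to 32.

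In the fit over all stages, the heavy minus light difference shifted between stages for 3 genes. Xrn1 shifted by -3.93 and Dcp1b by -2.90 from zygote to 2-cell. Eif4enif1 shifted by -4.98 at the 2-cell to 4-cell step and by 4.43 at the next one. No explanation of these values was tested.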

How the results depend on the processing

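The 20 transcriptome calls stayed at 19 to 22 under the alternatives. Without the 2-cell stage, whose columns share no letters with the others, 6 were called with and without the replicate block. Letters did not pair transcriptome samples, with correlations of deviations from -0.18 to 0.17. With fractions 2 to 5 as light, 3 heavy against light calls were made. Among them was Xrn1 heavier in zygotes, which the main fit did not call. With edgeR 1 was made. The 8 calls of the main fit became 9 with the gradient as a replicate block, and 6 to 11 without single gradients. At the 6 stages other than 2-cell and 4-cell they went from 4 to 7 when the gradients of those stages were left out, an alternative chosen after seeing the data. The 4 shifts became 4 with the block, 2 with quantile normalization, 2 with edgeR, and 2 to 5 without single gradients. With only the groups compared none of these 4 was called. The 1 call in that setting was Dcp1a from zygote to 2-cell (shift -2.70, limma adjusted p 0.042). Of the 4 other transitions 0 became 1 without the 2-cell and 4-cell gradients. The cause was not tested. No called value changed sign under any alternative run. Quantile normalization moved the median change of all genes from -0.11 to 0.16 between GV and MII and from 0.37 to -0.08 between zygote and 2-cell, and the share of called genes that rose from 26.4% to 55.6% and from 74.3% to 46.4%. At 4-cell to 8-cell that share went from 17.4% to 49.8%, at 8-cell to morula from 68.9% to 52.0% and at morula to blastocyst from 70.2% to 50.8%. Fraction libraries held as few as 0.0102 M reads, in fraction 1 of a GV gradient, which limits what can be detected there.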

Other observations

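Edc4 had a higher mean in fraction libraries than in transcriptomes up to the 8-cell stage, and a lower one in morulae (15.9 and 30.2 CPM, percentile 33.1) and blastocysts (36.2 and 58.4 CPM, percentile 41.3). In GV oocytes its mean over the fraction libraries was 504 CPM beside 42.4 CPM in the transcriptome, a log2(CPM + 1) difference of 3.54 that lies at percentile 97.5 of 12567 genes. In MII oocytes the values were 455 and 81.6 CPM (percentile 82) and in zygotes 313 and 42 CPM (percentile 84.8). Xrn1 lay at the other end, with 3.93 CPM in fractions and 20.3 CPM in the transcriptome of GV oocytes (percentile 7.43). Lsm14a in MII oocytes had 87.2 CPM in fractions and 367 CPM in the transcriptome (percentile 11.3). Edc3 in blastocysts had 76.6 CPM in fractions and 24.3 CPM in the transcriptome (percentile 93.2). Fractions weigh equally in these means whatever RNA they held, and no test was made. Nrn1l, on the same strand as Edc4, shares 8.33% of its exon bases and averaged at most 1.21 CPM at any stage.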
